A study of Homo sapiens with 4 samples.

Results

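The SR protein kinase genes SRPK1, SRPK2, CLK1, CLK2, CLK3 and CLK4 were followed through peaks of RNA crosslinked to FLAG-tagged ZFR. The 6 genes were found in the peak lists by their gene identifiers, and 5 of them are among the 17764 genes with a listed peak. SRPK2 was included because many of its peaks recurred in both eCLIP libraries, and CLK1 and CLK4 because they are known for retained introns. The 4 libraries are 2 eCLIP libraries (replicates 1 and 2) and 2 size-matched inputs (1 and 2). All came from HEK-293 Flp-In TREx cells, a human embryonic kidney line, carrying FLAG-ZFR stably integrated in an FRT site. The cells were polyclonal, and transgene expression was switched on with doxycycline at 1 µg/mL over 48 to 72 h, followed by ultraviolet crosslinking at 400 mJ/cm2, so the inputs carry the same transgene and induction as the eCLIP libraries. No wild-type or untagged cells are among these samples, and no label ties the 2 libraries of a group to separate cultures. The p-values of the comparison of eCLIP with input therefore rest on the spread among these 4 libraries, drawn together over genes. That spread may be technical. The authors' p-values quoted for single peaks belong to the list of their own library and do not measure that spread.

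SR proteins are splicing factors with a domain rich in arginine and serine, and phosphorylation of that domain controls where they are in the cell and what they bind. SRPK1 and SRPK2 are mainly cytoplasmic kinases that phosphorylate SR proteins and thereby promote their import into the nucleus. CLK1, CLK2, CLK3 and CLK4 are nuclear kinases with specificity for serine, threonine and tyrosine, which phosphorylate SR proteins further and release them from nuclear speckles. CLK1 and CLK4 transcripts are known to be kept in the nucleus in part as forms with introns retained. ZFR is a zinc finger protein of the DZF family that binds RNA and takes part in splicing. In eCLIP, RNA fragments joined to the tagged protein are recovered by immunoprecipitation, and the size-matched input, made from the same gel region without it, shows the background of abundant RNA.

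The peak lists differ greatly in length, from 479308 and 41904 peaks in the eCLIP libraries to 63068 and 11204 in the inputs. The kinase genes took 692 and 153 peaks in eCLIP replicates 1 and 2, and 88 and 19 in inputs 1 and 2. Levels are given here as peaks per 10000 peaks of the library. The number of reads in a peak was read from the end of its name, which the files do not explain, and no listed peak has fewer than 3. The depth of the libraries is unknown, since the lists hold only called peaks.

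The kinases fell into a group with many peaks and a group with few. SRPK2 held 455 and 101 peaks in eCLIP replicates 1 and 2, against 48 and 9 in inputs 1 and 2. SRPK1 held 195 and 48 in eCLIP, against 32 and 10 in inputs 1 and 2. None of the CLK genes reached more than 20 peaks in any list. CLK1 had 11 and 2 peaks in eCLIP, against 6 and 0 in inputs 1 and 2. CLK4 had 11 and 2 in eCLIP, against 2 and 0 in the input lists. CLK3 had 20 peaks in eCLIP replicate 1 and no peak in the other 3 lists. For CLK2 none of the 4 lists holds a peak. Input 2 listed no peak in any CLK gene, as in 55.4% of the 8914 genes with 10 or more peaks in all lists together. A gene with no listed peak is not shown to be unbound, because the lists name only peaks of at least 3 reads that passed the authors' p-value limit.

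The genes differ in length, so the number of peaks was also set against the span, the stretch between the outermost bases of a gene's peaks, taken over the 4 libraries together. In hg19, SRPK2 (ENSG00000135250.12) spanned chr7:104751229-105028992 on the minus strand, or 278 kb, and SRPK1 (ENSG00000096063.10) chr6:35800843-35887801 on the minus strand, or 87.0 kb. CLK1 (ENSG00000013441.11) spanned chr2:201718663-201729377, or 10.7 kb, and CLK4 (ENSG00000113240.8) chr5:178029772-178047017, or 17.2 kb, both on the minus strand. CLK3 (ENSG00000179335.14) spanned chr15:74909052-74923021 on the plus strand, or 14.0 kb. Per kb of span, eCLIP replicate 1 listed 2.24 peaks in SRPK1, 1.64 in SRPK2, 1.43 in CLK3, 1.03 in CLK1 and 0.638 in CLK4. Per length the kinases thus lay much closer together in this library than their peak counts, with SRPK1 ahead of SRPK2. The span is set by the peaks themselves, so in a gene with few peaks it may be short and the density high. In eCLIP replicate 2 the density was 0.552 peaks per kb in SRPK1, 0.364 in SRPK2, 0.187 in CLK1, 0.116 in CLK4 and 0 in CLK3. The CLK1 and CLK4 values there rest on 2 peaks each. The median gene had 0.896 peaks per kb in eCLIP replicate 1 and 0.0703 in eCLIP replicate 2. These medians cover 6535 and 5397 genes of at least 20 peaks and 5 kb with a peak in that list. Genes with no peak in a list, such as CLK3 in eCLIP replicate 2, are left out of its median. CLK1, with 19 peaks over the libraries, and CLK4, with 15, fall short of that filter, so their densities are not set against this median.

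**Figure D1:**
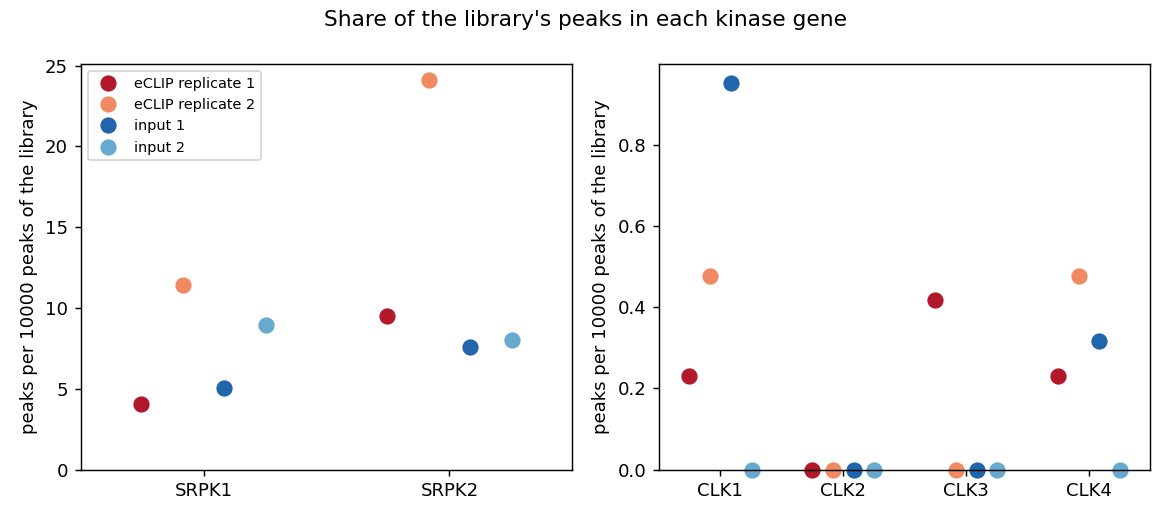
Peaks in each kinase gene (vertical axis: peaks per 10000 peaks of the library; 1 point per library, eCLIP in red and orange, inputs in blue). For SRPK2 the eCLIP points, at 9.49 and 24.1, lie above the inputs at 7.61 and 8.03, while for SRPK1 the eCLIP points lie on either side of the inputs, and the CLK genes stay under 1 in every library.

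The first comparison asked whether eCLIP placed a larger share of its peaks in the kinase genes than the input did. SRPK2 had 9.49 and 24.1 peaks per 10000 in eCLIP replicates 1 and 2, against 7.61 and 8.03 in inputs 1 and 2. Both eCLIP values lay above both inputs, and the gap between the eCLIP libraries was wider than that between eCLIP replicate 1 and the inputs. SRPK2 was chosen for its eCLIP peaks, so this order is a description; it was found in 21.1% of the 8914 genes that passed the filter of 10 peaks, summed over the libraries. The opposite order was found in 10.2% of genes and in 0 of the 5 kinases tested. SRPK1 had 4.07 and 11.5 per 10000 in eCLIP, against 5.07 and 8.93 in inputs 1 and 2. Its groups overlapped, and in both groups the library numbered 2 was the higher. CLK1 had 0.229 and 0.477 in eCLIP, against 0.951 and 0 in inputs 1 and 2. CLK4 had the same eCLIP shares, against 0.317 and 0 in the input lists. In both genes these shares rest on 2 peaks in eCLIP replicate 2 and do not separate the groups. CLK3 had 0.417 in eCLIP replicate 1 and was listed at 0 in the other libraries.

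No kinase gene passed the test. In the limma fit over all 4 libraries, on log2(peaks per 10000 + 0.5), 0 of 8914 genes were called in either direction after Benjamini-Hochberg adjustment, a background of 0% higher and 0% lower. Without adjustment, 112 genes (1.26%) had a p under 0.05 and a higher share in eCLIP, and 62 (0.696%) a lower one; neither group held a tested kinase. The difference of eCLIP minus input was 0.03 (SE 0.94, adjusted p = 0.998) for SRPK1, -0.01 (SE 0.77, adjusted p = 0.999) for CLK1, 0.44 (SE 0.35, adjusted p = 0.995) for CLK3 and 0.40 (SE 0.60, adjusted p = 0.995) for CLK4. For SRPK2 the difference was 0.91 (SE 1.04), given without a test. The median difference of all genes tested was 0.16. The 95% interval of the difference ran from -1.92 to 1.97 for SRPK1, from -1.61 to 1.58 for CLK1, from -0.30 to 1.17 for CLK3 and from -0.84 to 1.64 for CLK4, so the fit does not show that the shares were equal. CLK2, with no peak, was not tested. With 2 libraries a group, the smallest two-sided p of an exact permutation test is 0.33. On this scale the change of a gene with few peaks is understated.

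Touching intervals affected input 1 most. Joined, the SRPK2 peaks formed 450 and 99 regions in eCLIP replicates 1 and 2, against 29 and 9 in inputs 1 and 2. Those of SRPK1 formed 195 and 48 in eCLIP, against 20 and 9 in inputs 1 and 2. The counts of input 1 in these genes thus hold many neighbouring intervals of the same stretch. This is not particular to them, since over all genes the 63068 intervals of input 1 formed 46390 regions.

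By share of the reads in peaks the order of the SRPK1 libraries was different. SRPK1 took 6.73 and 10.6 per 10000 reads in eCLIP replicates 1 and 2, against 4.93 and 3.92 in inputs 1 and 2. SRPK2 took 11.9 and 23.2 per 10000 reads in eCLIP, against 7.02 and 3.04 in inputs 1 and 2. In input 2 the mean reads per peak were 4.00 in SRPK1 and 3.44 in SRPK2, against 9.11 over all genes. The shares by reads of that library are thus lower than those by peaks. Both genes then had both eCLIP libraries above both inputs, as did 25% of the genes tested. The CLK genes took 0.348 per 10000 reads or less in eCLIP and up to 0.722, in CLK1, in input 1. Among peaks with a deposited p-value of at most 0.001, SRPK1 held 10.8 and 16.4 per 10000 in eCLIP against 8.83 and 3.11, and SRPK2 held 20.3 and 32.7 against 8.83 and 6.22. In SRPK1 these were 120 and 15 peaks in eCLIP, but only 7 and 1 in inputs 1 and 2. In SRPK2 they were 226 and 30 in eCLIP, but only 7 and 2 in inputs 1 and 2. Both eCLIP values lay above both inputs for 31.8% of the 3334 genes with enough such peaks.

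The peaks of both SRPK genes held more reads on average in eCLIP replicate 1 than in the other lists. These reads are not scaled to depth, which is unknown. All peaks together held 3075352 and 229647 reads in eCLIP replicates 1 and 2, and 249245 and 102084 in inputs 1 and 2. SRPK1 peaks held a mean of 10.6 and 5.06 reads in eCLIP replicates 1 and 2, against 3.84 and 4.00 in inputs 1 and 2. SRPK2 peaks held 8.06 and 5.27 in eCLIP, against 3.65 and 3.44 in inputs 1 and 2. Over all genes the means were 6.42 and 5.48 in eCLIP and 3.95 and 9.11 in the inputs. In eCLIP replicate 1 the weakest SRPK1 peak had 4 reads, and 10.8% of SRPK2 peaks had 3 reads, whereas 32.0% of all peaks of that library did. The strongest SRPK1 peak had 42 reads in eCLIP replicate 1 and 15 in replicate 2. The strongest SRPK2 peak had 34 and 27, while no input peak in either gene had more than 6.

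The second comparison asked which positions of the kinase genes carried a peak in each eCLIP library and none in the inputs; these are called shared sites here. Overlap meant at least 1 shared base on the same strand. SRPK2 had 39 shared sites, counted on eCLIP replicate 1, and SRPK1 had 22. CLK1, CLK3 and CLK4 had none, although CLK1 and CLK4 had peaks in both eCLIP libraries. Of the 8914 genes, 39.9% had at least 1. SRPK2 was chosen on this count, and 8 genes had more. SRPK1, with 22, had 35 genes above it among the 3903 genes with any.

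The share of eCLIP replicate 2 peaks that recurred in replicate 1 is given as a description, since SRPK2 was chosen for such peaks. In SRPK1, 23 of 48 peaks, or 47.9% (Wilson 95% interval 34.5 to 61.7), met a peak of the longer eCLIP list. In SRPK2, 43 of 101, or 42.6% (33.4 to 52.3), did. Over all genes the share was 33.1%. The intervals of SRPK1 and SRPK2 overlap, cover counting error only, and were not tested against the other genes. Peaks of eCLIP replicate 1 also lay denser in these genes, at 2.24 and 1.64 per kb of span, than in the median gene at 0.896 per kb, and the part of this density in the overlap was not tested. For peaks with 3 reads the share was 7 of 15, or 46.7% (24.8 to 69.9), in SRPK1. In SRPK2 it was 18 of 44, or 40.9% (27.7 to 55.6), against 28.0% over all genes. For those with 4 to 10 reads it was 48.4% (32.0 to 65.2) in SRPK1 and 45.8% (32.6 to 59.7) in SRPK2, against 36.2%. In both of these classes the intervals of both genes hold the share over all genes. For those with over 10 reads it was 1 of 2 in SRPK1 and 3 of 9 in SRPK2, or 33.3% (12.1 to 64.6), against 54.0% over all genes, which the interval of SRPK2 holds.

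Input peaks of SRPK1 and SRPK2 met eCLIP peaks as well. In SRPK1, 13 of 32 peaks of input 1 and 3 of 10 of input 2 overlapped a peak of eCLIP replicate 1. In SRPK2, 12 of 48 and 3 of 9 did. These shares were 40.6% (25.5 to 57.7) and 30.0% (10.8 to 60.3) in SRPK1, and 25.0% (14.9 to 38.8) and 33.3% (12.1 to 64.6) in SRPK2, against 12.8% and 25.1% over all genes. For input 1 both intervals lie above the share of all genes, and for input 2 both hold it. Those of input 1 are too narrow, because its 32 and 48 peaks formed 20 and 29 regions once touching intervals were joined. Peaks of eCLIP replicate 1 also lay denser in both genes than in the median gene, and the part of this density was not tested. No peak of input 1 met a peak of input 2 in either gene. Over all genes 18.4% of input 2 peaks overlapped a peak of input 1, and 0 of 10 in SRPK1 and 0 of 9 in SRPK2 allow shares of up to 27.8% and 29.9%, so a difference was not detectable here.

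**Figure D2:**
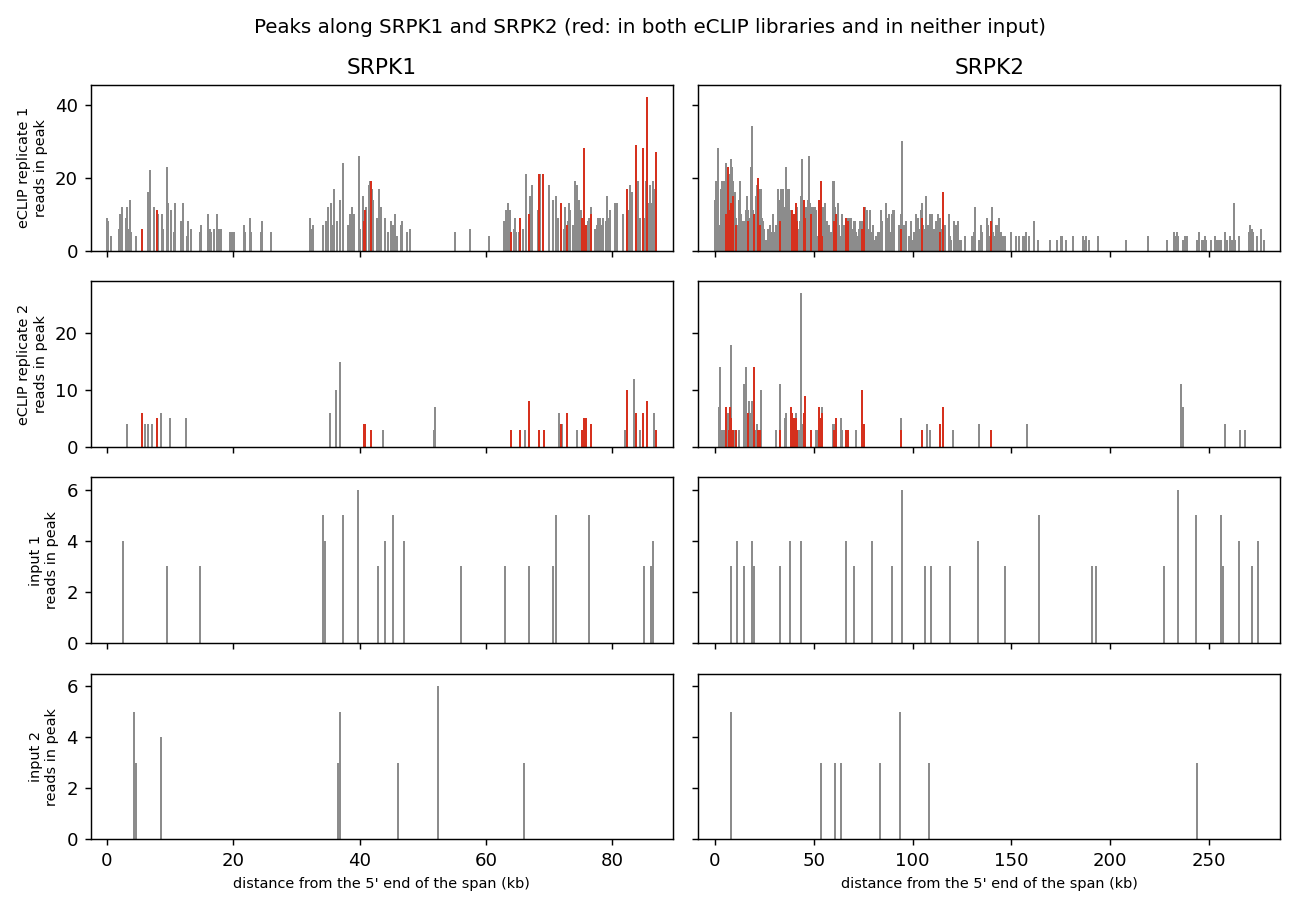
Peaks along SRPK1 (left) and SRPK2 (right) in each library, by distance from the 5′ end of the span in kb, with the reads in each peak on the vertical axis (a scale of its own for each library). Red lines mark the shared sites, with a peak in each eCLIP library and none in the inputs: 22 in SRPK1, of which 17 lie in the last 3 of 10 parts, and 39 in SRPK2, of which 38 lie in the first 5 parts.

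SRPK1 peaks were spread unevenly, and 17 of its 22 shared sites lay in the last 3 parts of the span. Of 10 equal parts of the span, counted from the 5′ end, the fourth held 5 and the seventh 3 of the 195 peaks of eCLIP replicate 1, while the fifth held 35, the ninth 34 and the last 31. In eCLIP replicate 2, of 48 peaks, the fourth and seventh parts held 0, the fifth 8, the ninth 10 and the last 12. Of the 22 shared sites, 5 lay in the eighth part, 6 in the ninth and 6 in the last, 3 in the fifth and 2 in the first.

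The 3 shared sites of SRPK1 with most reads all lay in the last part. The strongest, chr6:35802242-35802280, had 42 reads in eCLIP replicate 1 (authors' p-value 1.43e-32) and 8 in replicate 2, 85.5 kb from the 5′ end of the span. The site at chr6:35804000-35804072 had 29 reads and 6, and chr6:35802912-35802956 had 28 and 6. The nearest peak of an input to these was 467, 1227 and 139 bases away. The shared site with most reads in eCLIP replicate 2 was chr6:35805462-35805501 there, with 10 reads against 17 in eCLIP replicate 1. At the 3′ limit of the span, chr6:35800843-35800885 had 27 reads in eCLIP replicate 1 and 3 in replicate 2. Over the 22 sites the reads ran from 5 to 42 (median 11) in replicate 1 and from 3 to 10 (median 4.5) in replicate 2, where 7 sites rested on 3 reads.

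A single SRPK1 position carried peaks of both eCLIP libraries and of an input. The peak at chr6:35850948-35850986 had 14 reads in eCLIP replicate 1. It met the strongest SRPK1 peak of eCLIP replicate 2, with 15 reads, and an input 2 peak of 5 reads. The strongest SRPK1 site of eCLIP replicate 2 thus lay where an input peak lay.

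SRPK2 peaks were concentrated toward the 5′ end. The first 5 of the 10 parts held 372 of 455 peaks (81.8%, 95% interval 77.9 to 85.0) in eCLIP replicate 1 and 94 of 101 (93.1%, 86.4 to 96.6) in eCLIP replicate 2, against 27 of 48 (56.2%, 42.3 to 69.3) in input 1 and 8 of 9 (88.9%, 56.5 to 98.0) in input 2. Both eCLIP intervals lay above that of input 1, and that of input 2 overlaps all of them. The 48 peaks of input 1 formed 29 regions once touching intervals were joined, so its interval is too narrow. In genes of at least 20 peaks and 5 kb, the first 5 parts held 58.6% and 59.4% of the eCLIP peaks, over 6535 and 5397 genes with a peak in the list, and 51.6% and 53.3% of the input peaks, over 6144 and 3324 genes. Among the 1119 of these genes with at least 100 peaks in eCLIP replicate 1, 125 had a larger share there than SRPK2. Among the 418 with at least 20 peaks in eCLIP replicate 2, 26 did.

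SRPK1 showed no such lean. Its first 5 parts held 47.2% (40.3 to 54.2) of the peaks of eCLIP replicate 1 and 35.4% (23.4 to 49.6) of eCLIP replicate 2. The inputs were at 43.8% (28.2 to 60.7) in input 1 and 70.0% (39.7 to 89.2) in input 2. Both SRPK1 eCLIP intervals lie below the 58.6% and 59.4% over all genes, a difference that was not tested. By this share, 915 of the 1119 genes in eCLIP replicate 1 and 361 of the 418 in replicate 2 were above SRPK1. The intervals of the eCLIP libraries did not meet those of SRPK2 in the same library. They cover counting error only, and the difference between the genes was not tested.

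**Figure D3:**
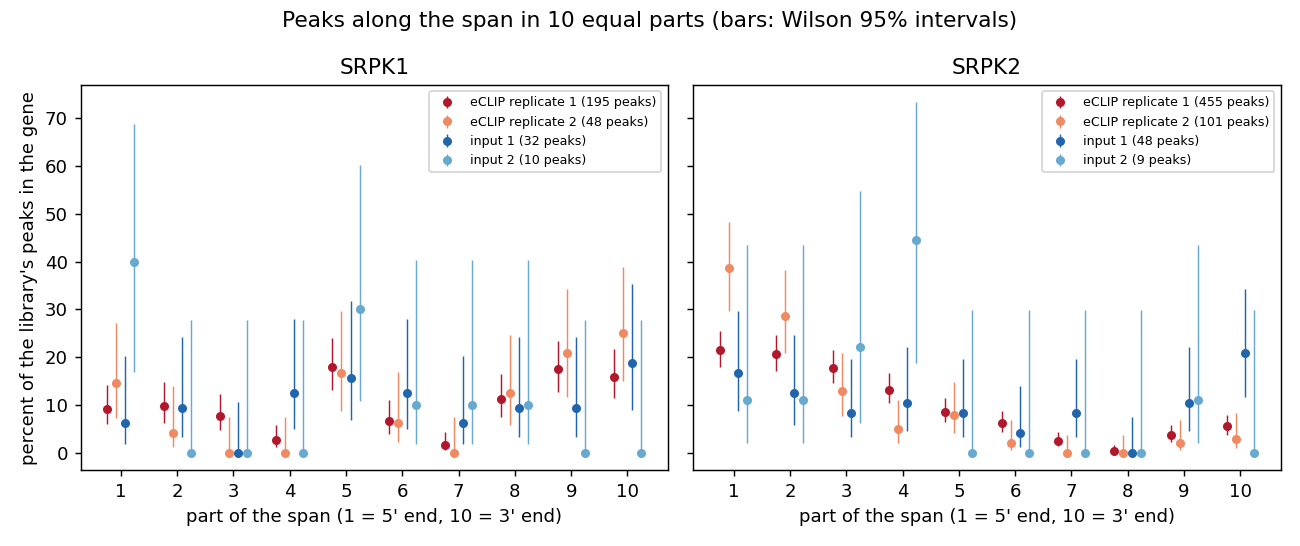
Share of the peaks of each library in 10 equal parts of the span of SRPK1 (left) and SRPK2 (right), with Wilson 95% intervals; red and orange points are eCLIP, blue points the inputs. In SRPK2 the first part held 21.5% and 38.6% of the eCLIP peaks and the last part 5.49% and 2.97%, while in SRPK1 the last part held 15.9% and 25.0%.

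At the 3′ end the intervals of the SRPK genes did not meet in either eCLIP library. They cover counting error only, and the difference between the genes was not tested. The last part held 15.9% (11.4 to 21.7) and 25.0% (14.9 to 38.8) of the SRPK1 peaks in eCLIP replicates 1 and 2, against 18.8% (8.89 to 35.3) in input 1 and 0 of 10 in input 2. In SRPK2 it held 5.49% (3.75 to 7.99) and 2.97% (1.02 to 8.37) in eCLIP, against 20.8% (11.7 to 34.3) in input 1 and 0 of 9 in input 2. In both genes the input 1 peaks of the last part were all pairs of touching intervals. The intervals of input 1 thus count the same stretch more than once and are too narrow to part it from eCLIP. Over the same genes of at least 20 peaks and 5 kb, the last part held 9.64% and 8.77% in eCLIP and 13.8% and 15.2% in the inputs. By share of peaks in the last part, 98 of 1119 genes were above SRPK1 and 689 above SRPK2 in eCLIP replicate 1. In eCLIP replicate 2, 26 of 418 were above SRPK1 and 249 above SRPK2. A count of 0 of 10 or 0 of 9 peaks allows any share up to 27.8% and 29.9% by the same intervals, so input 2 shows nothing about this end.

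The shared sites of SRPK2 followed the 5′ lean. Of the 39 sites, 11 lay in the first part, 16 in the second and 7 in the third, and none beyond the sixth. They were a median of 1272 bases from one to the next, and 10 of the 38 gaps were under 500 bases. The densest 10 kb, from chr7:104980477 to 104990256, held 12 sites with 111 reads in eCLIP replicate 1. In SRPK1 the densest 10 kb, from chr6:35811070 to 35820969, held 9 of the 22 sites with 126 reads.

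The 3 shared sites of SRPK2 with most reads had fewer reads than those of SRPK1. The strongest, chr7:105022084-105022141, had 23 reads in eCLIP replicate 1 (authors' p-value 1.56e-14) and 3 in replicate 2, 6.88 kb from the 5′ end of the span. The site at chr7:105007407-105007458 had 20 reads and 3, and chr7:104975254-104975286 had 19 and 5. The nearest input peak to the last of these was 92 bases away. In eCLIP replicate 2 the shared site with most reads was chr7:105009046-105009134, with 14 reads there against 10 in eCLIP replicate 1. Over the 39 sites the reads ran from 4 to 23 (median 9) in replicate 1 and from 3 to 14 (median 4) in replicate 2, where 18 sites rested on the lowest listed number of 3.

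The strongest SRPK2 positions of each eCLIP library also carried an input peak. The peak with most reads in eCLIP replicate 1, chr7:105010087-105010125 with 34 reads, met a peak of 8 reads in eCLIP replicate 2 and one of 4 reads in input 1. The peak with most reads in eCLIP replicate 2, chr7:104985253-104985295 with 27 reads, met a peak of 15 reads in eCLIP replicate 1 and a pair of input 1 intervals of up to 4 reads. The second strongest of eCLIP replicate 2, chr7:105020602-105020698 with 18 reads, overlapped 1 peak from each other library, of 10 reads (eCLIP replicate 1), 3 reads (input 1) and 5 reads (input 2). Counted on eCLIP replicate 1, 4 of the 43 SRPK2 peaks found in both eCLIP libraries met an input, 3 of them input 1 and 1 input 2. The other 39, or 90.7% (78.4 to 96.3), met none, and over all genes 85.2% met none, a value inside that interval. Rules that drop every position with an input peak thus drop the strongest SRPK2 sites of both eCLIP libraries, although the eCLIP peaks there held more reads. Reads of different libraries are not scaled to depth, which is unknown.

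**Figure D4:**
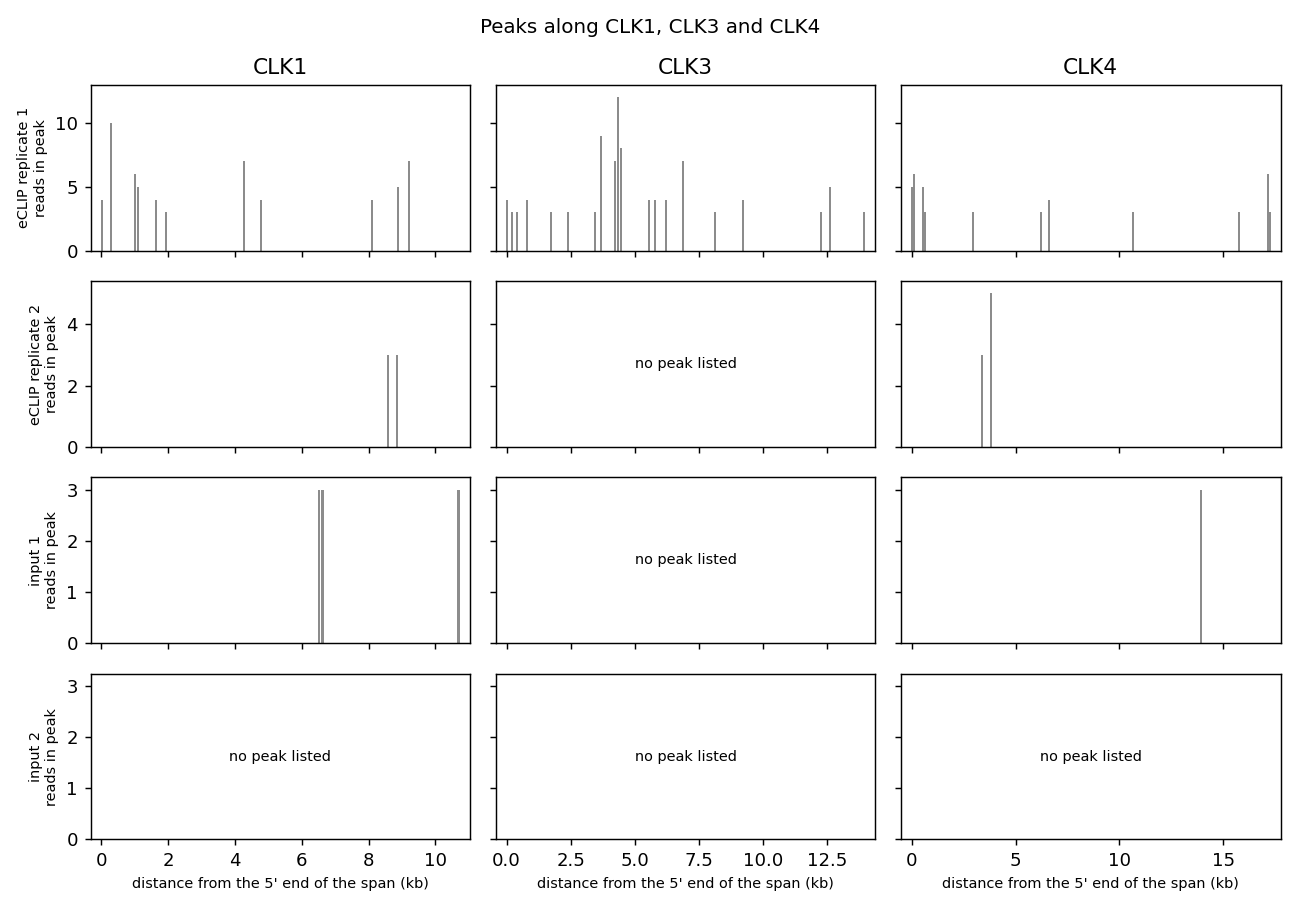
Peaks along CLK1, CLK3 and CLK4 in each library, by distance from the 5′ end of the span in kb, with the reads in each peak on the vertical axis (a scale of its own for each library). CLK3 has peaks in eCLIP replicate 1 only, with a group of 4 near 4 kb that reaches 12 reads, and no CLK peak lies at the same position in 2 libraries.

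In the CLK genes no position was shared between any of the 4 lists, and whether a CLK peak lies in an intron was not analysed here. Over all genes, 33.1% of eCLIP replicate 2 peaks met a peak of replicate 1, and 2.96% of replicate 1 peaks met one of replicate 2. In CLK1 and in CLK4, 0 of 2 peaks of eCLIP replicate 2 allows a share of up to 65.8%. CLK3 had no peak there that could be shared. The lack of shared positions thus shows no difference from other genes. The 11 CLK1 peaks of eCLIP replicate 1 had 3 to 10 reads. The strongest, chr2:201729025-201729117 with 10 reads (authors' p-value 0.000153), lay 0.306 kb from the 5′ end of the span. The 2 CLK1 peaks of eCLIP replicate 2 had 3 reads each. One of them, chr2:201720521-201720539, began at the base after the eCLIP replicate 1 peak chr2:201720486-201720520 of 5 reads, so the libraries touched without sharing a base. The other lay 249 bases from that peak. All 6 CLK1 intervals of input 1 had 3 reads, and they formed 3 regions once touching intervals were joined.

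CLK4 had the lowest mean reads per peak of the CLK genes in eCLIP replicate 1, at 4.00. Its 11 peaks there held 3 to 6 reads, and 6 of them held 3. The strongest, chr5:178046895-178046943 with 6 reads (authors' p-value 0.000697), lay 0.098 kb from the 5′ end of the span. In eCLIP replicate 2, chr5:178043161-178043201 had 5 reads (authors' p-value 0.000785) and chr5:178043602-178043632 had 3. They lay 871 and 440 bases from the nearest CLK4 peak of eCLIP replicate 1. The 2 intervals of input 1 touched each other and formed 1 region.

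CLK3 held the strongest single CLK peak of eCLIP replicate 1, while its peaks had a mean of 4.80 reads there, against 5.36 in CLK1 and 4.00 in CLK4. That peak, chr15:74913368-74913402, had 12 reads (authors' p-value 3.34e-09). Close to it lay chr15:74912706-74912745 with 9 reads, chr15:74913516-74913531 with 8 and chr15:74913295-74913308 with 7. Of the 20 CLK3 peaks, 5 had a p-value of at most 0.001, against 3 of 11 in CLK1 and 2 of 11 in CLK4. Because the list of eCLIP replicate 1 is the longest by far and no other library lists a CLK3 peak, this group of peaks has no replicate.

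By the likeness of its log2 shares over the 4 libraries, SRPK2 lay nearest to ENSG00000230590.3 on chromosome X (distance 0.547) and ENSG00000179912.15 on chromosome 12 (distance 0.686). Those genes held 7.39 and 22.9 peaks per 10000 in eCLIP against 6.82 and 10.7 in the inputs, and 7.55 and 25.8 against 4.92 and 7.14. With 4 libraries such a likeness is loose, and it follows the list lengths as well as the groups.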

How the data were processed

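Per the submitters' processing notes, cutadapt, STAR and SAMtools were used with the hg19 build; the sources used here give no version, peak caller or annotation. The authors deposited 1 peak list per library. The deposited p-value of each peak is under 0.05, and the deposited score is the whole part of 10 times its negative log10, capped at 1000 (0 where the p-value is 0), a relation that 0 peaks broke. The whole number ending a peak's name was read as its reads.

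Libraries were grouped by title. Shares of peaks were fitted in R 4.3.3 with limma 3.58.1 for genes of 10 or more peaks in total (lmFit, eBayes with a trend; two-sided; Benjamini-Hochberg, threshold 0.05) on log2(peaks per 10000 + 0.5). The fit was tested on simulated data with counting error only, which does not cover the spread between the real libraries of a group. Overlaps used bedtools 2.31.1. A peak's place in the span is that of its middle. Positions count from 1. Wilson 95% intervals cover counting error only.

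The text names the 6 kinases, the 3 strongest shared sites of each and the 2 genes nearest to SRPK2; other sites were chosen after their values were seen. The members and lists were chosen with earlier results of these data known. The files pair no gene name with identifiers, and 0 of 59792 genes in the RefSeq table (GRCh38.p14) carry an Ensembl identifier, so the SR protein substrates of the kinases, exons, introns and peak sequences were not analysed here. Alternatives varied the pseudocount, filters, p-value limit, overlap rule, joining of touching intervals, reads in place of peaks, the replicate number as a block, and each library left out.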

Additional observations from a re-analysis of the deposited data

How the results depend on the processing

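None of the kinase genes passed the threshold in 11 alternative fits, except CLK3 without eCLIP replicate 2, with a difference of 0.88. There eCLIP replicate 1 stands alone against inputs both at 0. Many other genes passed in that fit too, all of them higher in eCLIP, so the CLK3 call is not particular to this gene. Fits with 1 library left out assume that the lone library varies like the other group. Over all fits the adjusted p ranged from 0.479 to 0.999 for SRPK1 and from 0.588 to 0.999 for CLK1 and CLK4, and for CLK3 it reached 0.998. The SRPK1 difference turned to -0.67 without eCLIP replicate 2 and to -0.35 without input 1, and was highest among these, at 0.72, without eCLIP replicate 1. The CLK1 difference turned to 0.43 with a pseudocount of 0.1, to 0.16 with touching intervals joined and to 0.76 without input 1, and was lowest, at -0.78, without input 2. CLK genes had too few peaks to be fitted without eCLIP replicate 1 or at a p-value limit of 0.001. SRPK2 stayed positive, between 0.26 (without eCLIP replicate 2) and 1.73. The median of all genes moved from 0.16 to 0.83 under a p-value limit of 0.001, where SRPK1 was at 1.25 and SRPK2 at 1.73, and to 0.40 with a pseudocount of 0.1. Over all genes the calls ranged from 0 to 663 with 1 library left out, the 663 without eCLIP replicate 2.

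With the replicate number as a block, 4 genes were called, no kinase among them; the deviations of same-numbered libraries correlated at 0.397 over 8914 genes, but 2 pairs do not show that the numbers pair the libraries. The 61 shared sites of the kinases fell to 16 at a p-value limit of 0.001, 10 in SRPK2 and 6 in SRPK1. The share of kinase peaks of eCLIP replicate 2 found in replicate 1 was 43.1%, and 34.0% where the overlap had to cover at least 50% of the peak. The last part of SRPK1 held 22.2% of the reads and 22.5% of the 120 p-limited peaks in eCLIP replicate 1. In input 1 it held 0% of only 7 such peaks. The last part of SRPK2 held 3.38% of the reads and 2.21% of the p-limited peaks in eCLIP replicate 1. It held 0% of the 30 p-limited peaks in eCLIP replicate 2 and 28.6% of 7 in input 1. In either gene, 7 peaks are too few to show a share. The causes of these shifts were not tested.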
